A study of Mus musculus with 10 samples.

Results

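Transcripts of 46 genes that act in the G2 phase and mitosis were followed through mouse trophoblast stem cells (TSCs). The genes were taken by name from a list that was drawn up with earlier results of these data known. All 46 have a row among the 17793 genes of the bulk table. In single cells all 46 have a row in the TSC library, and 44 have a row in each of the 4 libraries. Tpx2 and Kif20a have a row in the TSC library only, so they are left out of every single-cell sum and were not set to 0 elsewhere. By their textbook roles the members fall into 7 groups. These are the CDK1 engine of mitotic entry (9 genes), mitotic kinases with their activator Tpx2 (5), the chromosomal passenger complex (4), kinetochore and checkpoint (9), the anaphase-promoting complex with sister separation (3), spindle and cytokinesis (11), and chromosome structure with the mitotic entry factor Cdca3 (5).

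A cell enters mitosis when CDK1 binds A and B cyclins and is switched on by CDC25 phosphatases. The kinases Aurora and PLK1 then build the spindle, kinetochores tie chromosomes to it, and the checkpoint holds the anaphase-promoting complex in check until every chromosome is attached. Many of these genes are transcribed together late in the cycle, through promoters with a CHR element, read by the DREAM and MYBL2-FOXM1 complexes, and with CCAAT boxes, read by NF-Y. Trophoblast is a tissue in which this programme is known to end in part of the cells: TSCs divide while FGF4 is present, and trophoblast giant cells replicate DNA without mitosis.

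CEL-Seq2, which reads transcript ends and tells molecules apart by identifiers (UMIs), was run on 10 libraries from lines on a C57BL/6J background. The 6 bulk libraries came from TSCs with eGFP knocked in at the Cdx2 coding sequence, grown in Tx medium and sorted as CDX2-high (libraries 37, 38 and 39) or CDX2-low (libraries 40, 41 and 42). CDX2 is a transcription factor of the trophoblast stem state. The 4 single-cell libraries came from lines with a randomly integrated GFP cassette, with 1 plate of 384 wells and 1 library per group. They are TSCs of line F4 grown in Tx medium, cells labelled as F4 after 6 days without Fgf4, Tgfb and heparin (differentiated TSCs), newly derived pTSCs grown in LT21 medium, and pTSCs of line pTS1 isolated from blastoids, which are blastocyst-like structures made from stem cells. Whether a line is 1 clone, and whether the bulk libraries of a group came from separate cultures, is not given in the sources used here. The p-values below thus speak only of how these libraries vary, and such variation may be technical.

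Bulk totals ran from 116659 to 272030 counts, and the shallowest CDX2-high library held more than any CDX2-low one. One count stood for 3.68 to 8.57 CPM, the unit of counts scaled to a common library total. Of the single-cell wells, 318 (TSC), 318 (differentiated), 299 (pTSC) and 257 (blastoid pTSC) held at least 2000 UMIs outside mitochondrial genes, with medians of 15091, 8473, 6844 and 8242 UMIs. Of 10 genes that define trophoblast, all were detected in each single-cell library, with summed levels of 6760, 5879, 8919 and 9116 CPM in the same order. The differentiated sum rested largely on Krt8 (2224 CPM) and Krt18 (2373 CPM). Cdx2, Elf5, Tfap2c and Esrrb had 8, 2, 3 and 3 UMIs there, against 269, 204, 38 and 11 in the TSC library. Of the 10, 7 were at least 2-fold lower than in TSCs and 1 higher, against 17.4% and 17.3% of all measured genes. A list of 8 fibroblast genes, for feeder cells, summed to 9.28, 12.3, 39.8 and 15.1 CPM in the order TSC, differentiated, pTSC and blastoid pTSC. Transcripts of 5 Y-linked genes summed to 69.4 CPM in the differentiated library, against 0 in TSCs, 0.41 in pTSCs, 0.864 in blastoid pTSCs and 197 to 326 in bulk. Xist stood at 4.3 CPM in the differentiated library, against 281 in the TSC, 194 in the pTSC and 349 in the blastoid library. The differentiated and TSC libraries, both labelled F4, thus differ in sex-linked RNA as well as in medium. No other differentiated library was analysed here, so its sums, counts of members and share of high cells are given beside both the TSC and the pTSC library. It differs from both in sex-linked RNA, and the part of this in the members' difference was not tested.

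Promoter windows of RefSeq (mouse build GRCm38.p6, from 250 bases before to 50 after an annotated start) were matched by symbol for 38 of the 46 members. The letters TTTGAA of the CHR element, on either strand, lie in 26 of these 38 windows (68.4%) and in 18.1% of the windows of all 27025 genes of that table. CCAAT, on either strand, lies in 28 of 38 (73.7%) and in 37.9% of all genes. Both are in 22 member windows (57.9%), against 7.12% of all genes, and 6 member windows hold neither. The TTTGAA matches sit close to the start, with 15 members (39.5%) carrying one in the first 50 transcribed bases and 9 (23.7%) in the 50 bases before it, where all genes reach 2.18% and 2.86%. The CCAAT matches sit further up, in 18 members (47.4%) between 100 and 51 bases before the start and in 19 of 38 in the last 50 bases before it, against 13% and 9.44% of all genes. These are matches of letters, and no binding was measured.

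The promoters below show the range, as the 250 bases before the start read 5′ to 3′ along the gene, with every TTTGAA and CCAAT match on either strand in capitals. Ccnb1 (chr13:100786487-100786736, minus strand), Cdk1 (chr10:69352913-69353162, minus strand), Ccnf (chr17:24251410-24251659, minus strand) and Ube2c (chr2:164769679-164769928, plus strand) are shown because they passed the bulk test described next. Birc5 (chr11:117848987-117849236, plus strand) is shown as a member without either motif that lay far lower in differentiated cells.
Ccnb1: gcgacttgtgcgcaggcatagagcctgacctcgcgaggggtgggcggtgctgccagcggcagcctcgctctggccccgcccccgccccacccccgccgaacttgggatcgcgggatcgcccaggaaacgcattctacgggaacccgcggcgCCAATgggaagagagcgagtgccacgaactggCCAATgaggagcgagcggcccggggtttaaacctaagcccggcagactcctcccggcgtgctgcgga
Cdk1: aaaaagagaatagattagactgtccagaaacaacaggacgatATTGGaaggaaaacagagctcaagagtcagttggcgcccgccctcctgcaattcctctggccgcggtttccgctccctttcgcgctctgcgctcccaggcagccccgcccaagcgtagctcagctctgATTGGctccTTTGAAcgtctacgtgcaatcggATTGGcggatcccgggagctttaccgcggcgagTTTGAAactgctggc
Ccnf: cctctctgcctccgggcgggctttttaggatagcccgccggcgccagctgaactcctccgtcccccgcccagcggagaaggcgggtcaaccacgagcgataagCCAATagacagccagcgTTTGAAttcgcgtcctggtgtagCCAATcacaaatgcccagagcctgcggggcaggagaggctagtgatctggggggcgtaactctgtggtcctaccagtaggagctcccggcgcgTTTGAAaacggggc
Ube2c: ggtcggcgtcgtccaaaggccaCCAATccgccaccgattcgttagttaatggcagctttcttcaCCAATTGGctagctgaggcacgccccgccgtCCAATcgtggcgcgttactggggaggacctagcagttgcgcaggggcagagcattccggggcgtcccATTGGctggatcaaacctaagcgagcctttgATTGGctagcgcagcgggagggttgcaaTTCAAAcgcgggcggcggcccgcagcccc
Birc5: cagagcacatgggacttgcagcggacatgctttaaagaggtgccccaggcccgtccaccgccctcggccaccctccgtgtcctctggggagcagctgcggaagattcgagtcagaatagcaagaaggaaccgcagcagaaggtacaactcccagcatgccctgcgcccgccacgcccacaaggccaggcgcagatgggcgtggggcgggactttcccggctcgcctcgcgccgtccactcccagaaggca
With the start site as position 0, Cdk1 carries TTTGAA at -71 and -15 and the reverse of CCAAT at -208, -80 and -48. Ccnf has TTTGAA at -130 and -14 and CCAAT at -147 and -107. Ube2c has the reverse of TTTGAA at -29 and 6 CCAAT matches, as many as Top2a and more than any other matched member. Ccnb1 has CCAAT at -99 and -67 and no TTTGAA, which says only that these letters are not in this window.

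Cdx2 RNA itself had 1, 0 and 5 counts in CDX2-high and 0, 1 and 0 in CDX2-low libraries. These counts are too few to tell the groups apart, which thus rest on the sort alone. The bulk comparison asks whether the mitotic programme differs between the sorted groups. It did for part of the members: 7 of 34 tested rose in CDX2-high libraries and 0 fell (edgeR's quasi-likelihood test, adjusted p under 0.05), where 3.09% of all 3006 tested genes rose and 2.79% fell. Together the 46 genes made up 8675, 9162 and 8525 CPM in CDX2-high libraries 37, 38 and 39, and 6009, 5491 and 5979 CPM in CDX2-low libraries 40, 41 and 42. All CDX2-high sums lay above all CDX2-low sums, with means of 8787 ± 333 and 5826 ± 291 CPM (SD, n = 3), a ratio of 1.51. In such bulk samples, fewer cells in G2 or M and less RNA per cell cannot be told apart. The median log2 fold change over the 34 tested members was 0.56, against -0.01 over all tested genes, and 30 of the 34 were positive, against 1472 of 3006. Groups did not overlap, with CDX2-high above, for 15 of the 34 (background 11.7%) and for 0 with CDX2-high below (background 11%). An unadjusted p under 0.05 was reached by 15 of the 34 members, all of them positive, and by 574 of all 3006 tested genes in either direction, and DESeq2 called 0 lower as well. The other 12 members were too low to be tested: Cdc25b, Cdc25c, Nek2, Ttk, Bub1, Ndc80, Nuf2, Kif20a, Kif20b, Kif23, Nusap1 and Anln. A gene could pass the filter on low counts through the libraries of 1 group alone, as the called member Cdca2 did through CDX2-high. Fitted without that filter on low counts, 44 of 46 members were positive, against 6660 of 12600 genes. Well counted members came out higher in that fit, as Cdk1 (0.86 to 0.95) and Top2a (0.59 to 0.68). Cdc20 (-0.05 to 0.05) and Mki67 (-0.02 to 0.08) changed sign, so the count of 44 depends in part on the fit.

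The CDK1 engine held most of the calls, with 4 of 7 tested members rising. Ccnb1, the B cyclin that drives entry into mitosis, stood at 565, 548 and 419 CPM in CDX2-high and at 189, 173 and 193 CPM in the CDX2-low group. The groups were far apart, and the log2 fold change was 1.44 (SE 0.24, adjusted p = 0.000299, edgeR). Cdk1, the kinase itself, stood at 577, 459 and 526 CPM against 300, 173 and 378 CPM. Its lowest CDX2-high library was above the highest CDX2-low one (log2 fold change 0.86, SE 0.25, adjusted p = 0.0386, edgeR). Ccna2, the A cyclin of S and G2 phase, was at 197, 280 and 224 CPM against 94.3, 122 and 148 CPM (0.93, SE 0.28, adjusted p = 0.0453, edgeR). Ccnf, the F-box cyclin that marks proteins for destruction in G2, was at 121, 128 and 154 CPM against 68.6, 36 and 59.3 CPM (1.31, SE 0.36, adjusted p = 0.0284, edgeR). The other 3 tested members did not pass: Ccnb2 (log2 fold change 0.44) and the CDK subunits Cks1b (0.31) and Cks2 (0.42). The summed engine was 1.81 times as high in CDX2-high libraries (2169 ± 137 against 1198 ± 215 CPM, SD, n = 3), the highest ratio of the 7 groups.

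**Figure D1:**
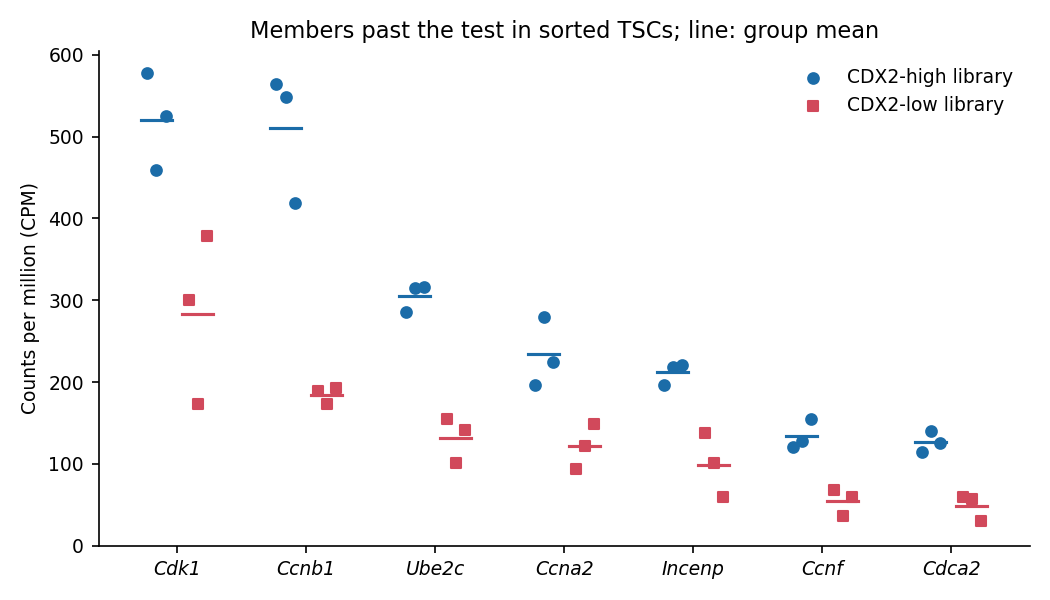
CPM of the 7 members past the bulk test, with 1 point per library, circles for CDX2-high, squares for CDX2-low and a line at each group mean. For each gene the 3 CDX2-high libraries sit above the 3 CDX2-low ones, as with Ccnb1 at 419 to 565 against 173 to 193.

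Among the other groups 3 single members rose. Ube2c, the ubiquitin-conjugating enzyme of the anaphase-promoting complex, was at 286, 315 and 316 CPM in CDX2-high and 154, 100.7 and 141 CPM in CDX2-low libraries, with no overlap (1.21, SE 0.26, adjusted p = 0.00459, edgeR). Its neighbours in that group did not pass. Cdc20, the activator of the same complex, was at 324, 346 and 320 CPM against 351, 259 and 407 CPM, with overlapping groups (-0.05, adjusted p = 0.942, edgeR). Pttg1 (securin) had a log2 fold change of -0.65 (adjusted p = 0.372, edgeR), the lowest of any tested member.

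In the chromosomal passenger complex, which corrects faulty attachments, the scaffold Incenp rose, at 197, 218 and 221 CPM against 137, 100.7 and 59.3 CPM (log2 fold change 1.11, SE 0.30, adjusted p = 0.0242, edgeR). The best counted subunit, Cdca8 (borealin), stood at 400, 459 and 342 CPM against 223, 353 and 267 CPM, where the lowest CDX2-high library lay below the highest CDX2-low one (0.49, adjusted p = 0.256, edgeR). The kinase Aurkb (0.70) and survivin, Birc5 (0.22), also overlapped. Cdca2, the chromatin anchor of a mitotic phosphatase, was at 114, 140 and 125 CPM against 60, 57.6 and 29.6 CPM, clear of each other (1.36, SE 0.37, adjusted p = 0.0279, edgeR). Its CDX2-low values all lie under the limit of the filter on low counts. Cdca2 thus entered the test only through the group where it is high. It shares its group with Top2a, the DNA topoisomerase that untangles sister chromatids and the best counted member of all. Top2a was at 1110, 1225 and 1169 CPM against 883, 734 and 704 CPM, and missed the threshold although the groups did not overlap (0.59, SE 0.19, adjusted p = 0.0618, edgeR). Mki67, the coat protein of mitotic chromosomes often used as a marker of dividing cells, had a log2 fold change of -0.02 (adjusted p = 0.991, edgeR), and Cdca3 one of -0.23.

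No mitotic kinase, kinetochore or spindle gene passed, although all 15 tested members of these 3 groups had positive log2 fold changes, from 0.10 to 1.19. Plk1, the polo kinase, had the largest of them (1.19, SE 0.39, adjusted p = 0.0669, edgeR), with 159, 117 and 121 CPM against 34.3, 93.5 and 37 CPM. Aurka, the spindle pole kinase and the best counted of its group, stood at 324, 210 and 250 CPM against 171, 130 and 185 CPM, while its activator Tpx2 was nearly level (0.65 and 0.13). Cenpf, a large kinetochore protein, was at 838, 731 and 662 CPM against 471, 590 and 348 CPM, with no overlap (0.64, adjusted p = 0.0799, edgeR). The checkpoint genes Bub1b (0.75), Mad2l1 (0.63) and Bub3 (0.24) and the histone variant of the centromere, Cenpa (0.51), lay in the same range. Tacc3, a spindle stabiliser and the best counted member of its group, was at 108, 202.2 and 147 CPM against 94.3, 115 and 111 CPM, with overlap (0.52). Prc1, which bundles the central spindle, came closest to a call there (0.94, SE 0.32, adjusted p = 0.0903, edgeR).

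**Figure D2:**
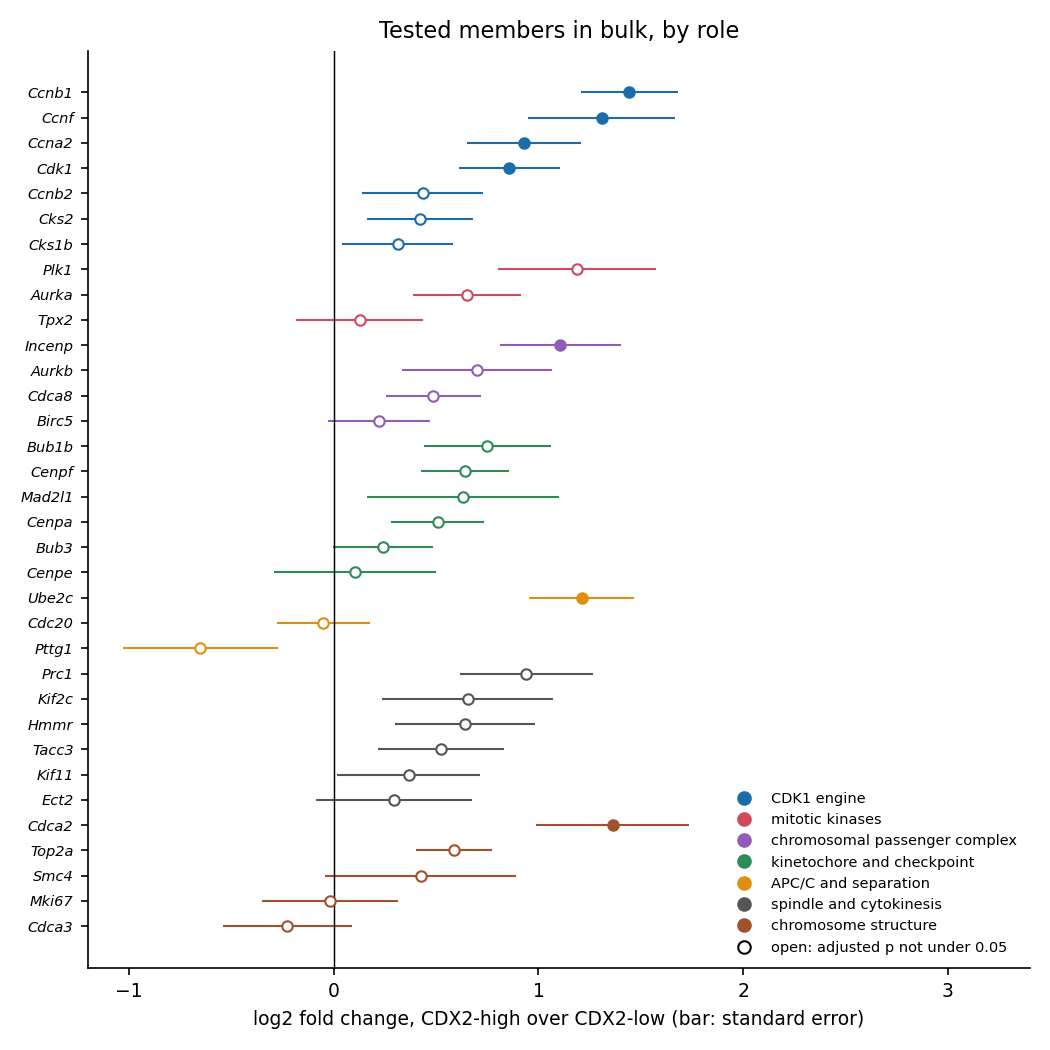
Log2 fold change of CDX2-high over CDX2-low for the 34 tested members, grouped by role, with bars of 1 standard error. Filled points passed the test. Most points lie right of 0, from Pttg1 at -0.65 to Ccnb1 at 1.44, and 4 of the 7 filled points belong to the CDK1 engine.

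How many members passed depended on the libraries and the tool. Ccnb1 and Ube2c passed in all 10 alternatives, with log2 fold changes of 1.40 to 1.58 and 1.05 to 1.37. The other 5 called members passed in fewer: Incenp in 5 of 10, Cdk1 (0.60 to 1.16), Ccnf and Cdca2 in 4, and Ccna2 in 3. Only 3 members passed by DESeq2 (Ccnb1, Ube2c and Top2a), 2 after thinning to the smallest total, and 3, 3 and 2 without CDX2-high library 37, 38 and 39. Lists of other cell cycle genes are set beside the 3.09% of all tested genes that rose and the 2.79% that fell. Calls of 1 or 2 genes are too few to set a list apart from that share or from another list. Of 26 tested genes in a list of 74 further mitosis and G2 genes, 6 rose and 0 fell (median log2 fold change 0.57): Fbxo5, Mybl2, Gtse1, Troap, Spag5 and Fam64a. Mybl2, a factor that activates late cell cycle genes through the CHR element, was at 635, 455 and 390 CPM against 283, 259 and 178 CPM (1.01, adjusted p = 0.0136, edgeR). In the S phase list 1 of 12 rose, the ribonucleotide reductase subunit Rrm2 (0.82), and the list's median was 0.15. Of 16 abundant genes often high in G2 and M 1 rose, the tubulin Tuba1c (0.88), with 6 negative and a median of 0.27. Of 9 genes of G1 and the endocycle 2 rose, Ccnd1, the cyclin of G1 (2.51, adjusted p = 0.000968, edgeR), and Fzr1, an activator of the anaphase-promoting complex (1.24). Of 2 cell state genes, Krt8 fell and Eomes did not pass the test. Krt8, a keratin of the trophoblast epithelium, was at 190, 198 and 246 CPM against 857, 655 and 763 CPM (-1.83, SE 0.22, adjusted p = 7.05e-06, edgeR). Eomes, a T-box factor of the stem state, was at 273, 167 and 180 CPM against 51.4, 144 and 133 CPM (0.83, adjusted p = 0.147, edgeR). Of 10 giant cell genes 1 or 2 were detected per library, with the placental lactogens Prl3d1 and Prl3b1 at 0, and their sum was 144 to 190 CPM in CDX2-high and 222 to 317 CPM in CDX2-low libraries. That sum is almost wholly Hand1, with 30, 37 and 43 counts in CDX2-high and 35, 38 and 29 in CDX2-low libraries. Only 1 gene of the list was tested, with a log2 fold change of -0.70, and it did not pass. The part of Krt8, Eomes and the giant cell genes in the members' difference was not tested.

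In single cells each group is 1 library, so no test was possible, and the 95% intervals given cover counting error only. Members are called higher or lower when CPM over all kept cells lay at least 2-fold apart. Levels of different members cannot be ranked against each other there. Relative to bulk, the TSC library read Aurka at 1.48 against 212 CPM and Tpx2 at 0.371 against 107 CPM, but Kif20b at 140 against 7.74 CPM. Of the 7 members at 5 CPM or less in the TSC library, 4 stood at 50 CPM or more in bulk. The ratio of TSC library to bulk had a median of 1.96 for 6 members with 1 or 2 annotated transcripts, 1.51 for 8 with 3 or 4, and 0.63 for 32 with 5 or more, and why was not tested. Each gene is therefore compared only with itself across the single-cell libraries.

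Differentiated TSCs held less mitotic RNA than TSCs. The 44 members summed to 9535 CPM in the TSC library (51380 UMIs) and 5797 CPM in the differentiated library (18868 UMIs), a ratio of 0.608 (0.598 to 0.618). Of 43 measured members 16 were at least 2-fold lower and 0 higher, where 17.4% of all 12016 measured genes were lower and 17.3% higher. Their median log2 ratio was -0.66, against 0.05 over all measured genes. Counting intervals lay wholly below 1 for 25 members and wholly above 1 for 5, and 2 of the 16 lower members, Aurka and Aurkb, had intervals that held 1. Against the pTSC library the sum was lower too, 5797 against 8258 CPM (ratio 0.702, 0.688 to 0.716), with 12 of 42 members lower (background 22.2%) and 1 higher, the spindle gene Tacc3 (background 20%). Of these 12, Aurkb, Ect2 and Cdca2 had intervals that held 1. Both comparisons share the differentiated library.

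The decrease was uneven, and Nuf2, Birc5, Ccnb1 and Plk1 were the furthest apart. Ccnb1 stood at 46.2 CPM in the TSC library and 9.83 CPM in the differentiated one (4.70-fold lower, 3.24 to 7.02), and at 45.9 CPM in the pTSC and 31.1 CPM in the blastoid library. Cdk1 was at 261, 86.3, 130 and 92.8 CPM in the order TSC, differentiated, pTSC and blastoid pTSC (3.02-fold lower in the differentiated than in the TSC library, 2.65 to 3.44). Cks1b, the subunit that guides CDK1 to its substrates and the best counted of this group in single cells, was at 487, 171, 817 and 569 CPM. It lay 2.85-fold lower than in TSCs and 4.78-fold lower than in pTSCs (4.35 to 5.26). Ccna2 was 2.18-fold lower, while Ccnb2 (451 and 266 CPM), Ccnf (385 and 298 CPM) and Cks2 (92 and 127 CPM) stayed within 2-fold. Plk1 was at 505, 117, 376 and 258 CPM, 4.31-fold lower than in TSCs (3.87 to 4.81), but Nek2, a centrosome kinase, was at 89.8, 122, 100.5 and 113 CPM.

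Survivin, Birc5, was at 254, 52.2, 152 and 104 CPM (4.86-fold lower, 4.14 to 5.73), and Cdca8 at 327, 156, 294 and 266 CPM (2.10-fold lower). The third passenger subunit with enough UMIs, Incenp, was within 2-fold (246 and 165 CPM). Kinetochore genes split in this comparison. Nuf2, which holds microtubule ends, had 280 UMIs in the TSC library and 34 in the differentiated one (4.97-fold lower, 3.48 to 7.33), and the checkpoint kinase-like Bub1b was 2.28-fold lower. The motor Cenpe (290 and 269 CPM), Cenpf (371 and 400 CPM) and Cenpa (72.6 and 67.9 CPM) were close to level. Nuf2 and its partner Ndc80 (138 and 122 CPM), which act as a dimer, thus differed in their ratios. Bub3, the best counted kinetochore gene, was at 475, 270, 486 and 433 CPM. Cdc20 was 3.26-fold lower (2.81 to 3.80), and Ube2c, at 748, 470, 733 and 467 CPM, was 1.59-fold lower.

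As a group, spindle and cytokinesis genes held their level. None of 10 measured members was 2-fold apart, their median log2 ratio was 0.10, and their sum was 1250 CPM in the differentiated library against 1313 CPM in the TSC library, a ratio of 0.952. Hmmr, a spindle assembly factor and the best counted of them, stood at 374, 375, 379 and 351 CPM in the order TSC, differentiated, pTSC and blastoid pTSC. The motor Kif11, which pushes spindle poles apart, was at 142, 150, 153 and 143 CPM, and Anln, a scaffold of the cleavage furrow, at 294, 321, 301 and 275 CPM. Neither was 2-fold apart in any of the 4 comparisons. Kif23, a motor of the central spindle, was lower (235 and 130 CPM) but within 2-fold. The sums of the other groups had ratios of 0.404 for the mitotic kinases, 0.451 for the passenger complex, 0.462 for chromosome structure, 0.547 for the CDK1 engine, 0.564 for the anaphase-promoting complex and 0.781 for kinetochores. Against the pTSC library the ratios were 0.946 for spindle and cytokinesis and, in the same order as before, 0.506, 0.607, 0.657, 0.581, 0.586 and 0.867. Against TSCs, chromosome structure rested on Top2a (1440 and 628 CPM, 2.29-fold lower, 2.18 to 2.41) and Mki67 (643 and 306 CPM, 2.10-fold lower). Against the pTSC library Mki67 was not lower, at 306 against 270 CPM.

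**Figure D3:**
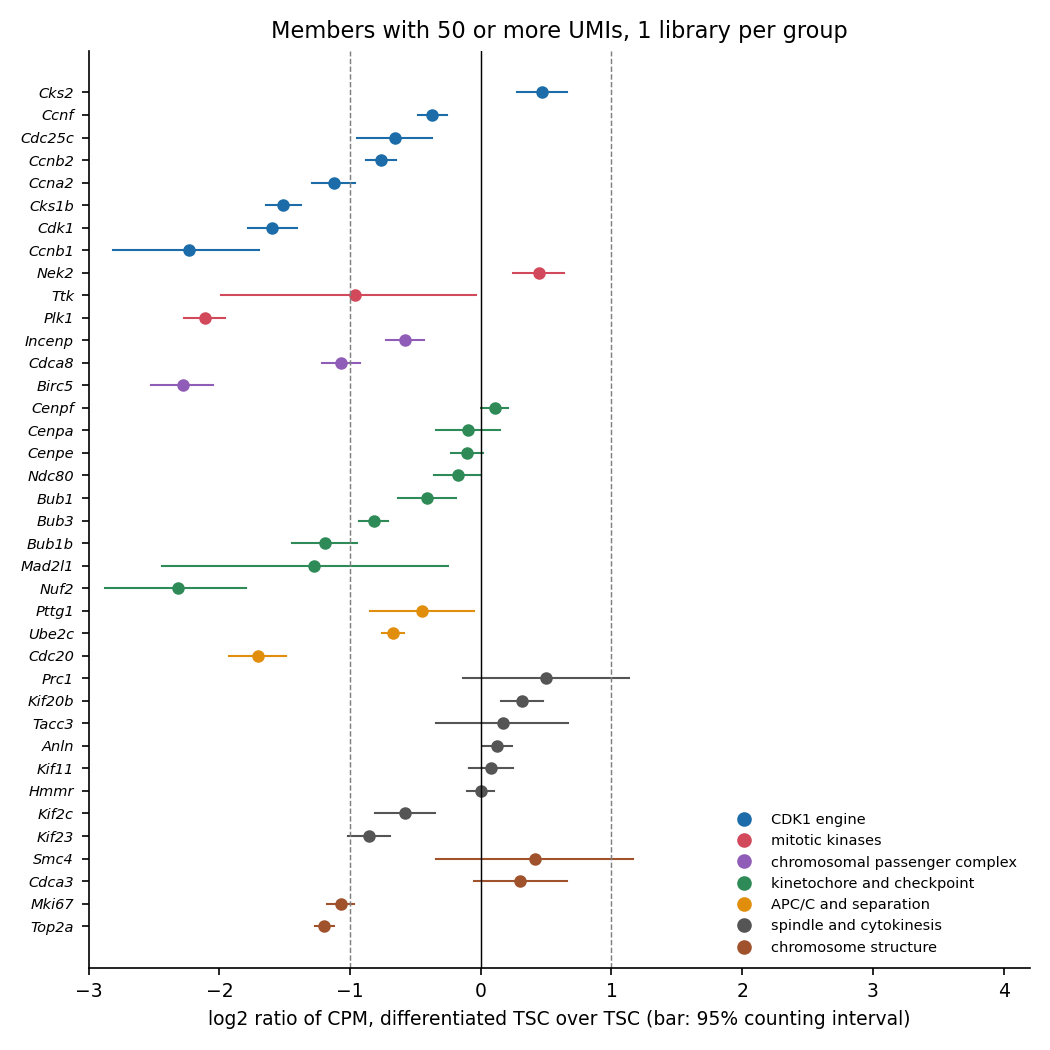
Log2 ratio of CPM, differentiated over TSC library, for members with at least 50 UMIs in both together, grouped by role, with 95% counting intervals and dashed lines at 2-fold. Nuf2, Birc5, Ccnb1 and Plk1 lie left of -2, and the spindle and cytokinesis genes Hmmr, Kif11 and Anln sit between 0.00 and 0.13.

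Other cell cycle lists differed from each other in the comparison with the TSC library. In the list of further mitosis and G2 genes 9 of 64 measured (14.1%) were lower and 3 higher, a smaller share lower than the 17.4% of all genes, and the summed list stood at 6987 against 6583 CPM. The sum holds Zwint, a kinetochore gene 2.68-fold higher in the differentiated library (5676 UMIs), while Mybl2 was 3.74-fold lower (2.94 to 4.82). Of 22 S phase genes 7 (31.8%) were lower and 0 higher, among them the replication helicase factor Cdc45, 7.76-fold lower (5.44 to 11.4). Of 13 genes of G1 and the endocycle 1 was higher, Ccnd2 (13 and 7 UMIs), and 1 lower, the CDK inhibitor Cdkn2a (2.74-fold), with a median log2 ratio of 0.19. Giant cell genes summed to 299.9 CPM in the differentiated library, led by the serpin Serpinb9e, and to 45.5 CPM in the TSC, 4.1 in the pTSC and 121 in the blastoid library. Their part in the members' difference was not tested.

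The pTSC and TSC libraries, which differ in line and medium, were closer to each other. The summed members stood at 8258 CPM in pTSCs, a ratio of 0.866 (0.852 to 0.880). Of 43 members 6 were at least 2-fold lower in pTSCs (background 13.4%) and 2 higher (background 17.6%). The lower ones were Pttg1 (2.65-fold, 1.79 to 4.05), Mki67 (270 against 643 CPM, 2.38-fold, 2.19 to 2.60), Tacc3, Ttk, Nuf2 and Cdk1 (130 against 261 CPM, 2.0-fold, 1.77 to 2.27). Smc4, a condensin subunit, was 2.70-fold higher (44 and 36 UMIs) and Ect2, which switches on RhoA at the furrow, 2.03-fold (11 and 12 UMIs, with an interval that holds 1). Ccnb1, Ccna2, Cdc20, Ube2c and Hmmr had log2 ratios between -0.03 and 0.02. Blastoid pTSCs and cultured pTSCs were closer still in the sum, which was 7530 CPM in the former, a ratio of 0.912 (0.894 to 0.931). There 1 of 43 members was higher, Prc1 (2.29-fold, 1.56 to 3.42; background 13.1%), and 1 lower, Ect2 with 4 and 11 UMIs (background 9.27%). Cdc20, at 107 against 208 CPM, and Ube2c, at 467 against 733 CPM, were lower within 2-fold, and the summed anaphase-promoting complex had a ratio of 0.626, while Mki67 stood at 479 against 270 CPM.

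To ask how many cells carry the programme, each cell was thinned to 2000 UMIs and its member UMIs were summed. A cell was called high at 21 or more, the smallest sum that at most 25% of cells reach when the libraries count equally. By that rule 103 of 318 TSCs were high (32.4%, 27.3 to 37.8, exact binomial interval), 57 of 318 differentiated TSCs (17.9%, 13.9 to 22.6), 73 of 299 pTSCs (24.4%, 19.7 to 29.7) and 64 of 257 blastoid pTSCs (24.9%, 19.7 to 30.7). The differentiated interval lies below the TSC interval and overlaps both the pTSC and the blastoid interval, which also overlap with each other. The class is a range of a score and not a cell type: 20.4%, 8.18%, 16.1% and 13.2% of cells lay within 2 UMIs of 21. Median sums were 17, 8, 15 and 13 UMIs.

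At the low end the libraries differed more. Cells with a sum of 0 to 2 made up 2.83% of the TSC, 24.5% of the differentiated, 2.34% of the pTSC and 11.7% of the blastoid library. In cells that were not high the mean sum was 12.5, 6.90, 12.2 and 9.45 UMIs, whereas in high cells it was 29.6, 29.3, 27.7 and 29.5 UMIs, which the rule bounds from below. High cells were deeper than the others before thinning (median 15880 against 13947 UMIs in the TSC, 9179 against 8207 in the differentiated, 8153 against 6551 in the pTSC and 9578 against 7797 in the blastoid library). Mitochondrial genes took 13.5%, 21.8%, 14.9% and 19.3% of all UMIs in high cells, and their part in these shares was not tested. Without thinning, the median share of member UMIs per cell was 0.847%, 0.390%, 0.728% and 0.660%. Wells with under 200 UMIs held 1002 to 4103 UMIs per library, of which members made up 1.20%, 0.268%, 0.647% and 0.731%.

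**Figure D4:**
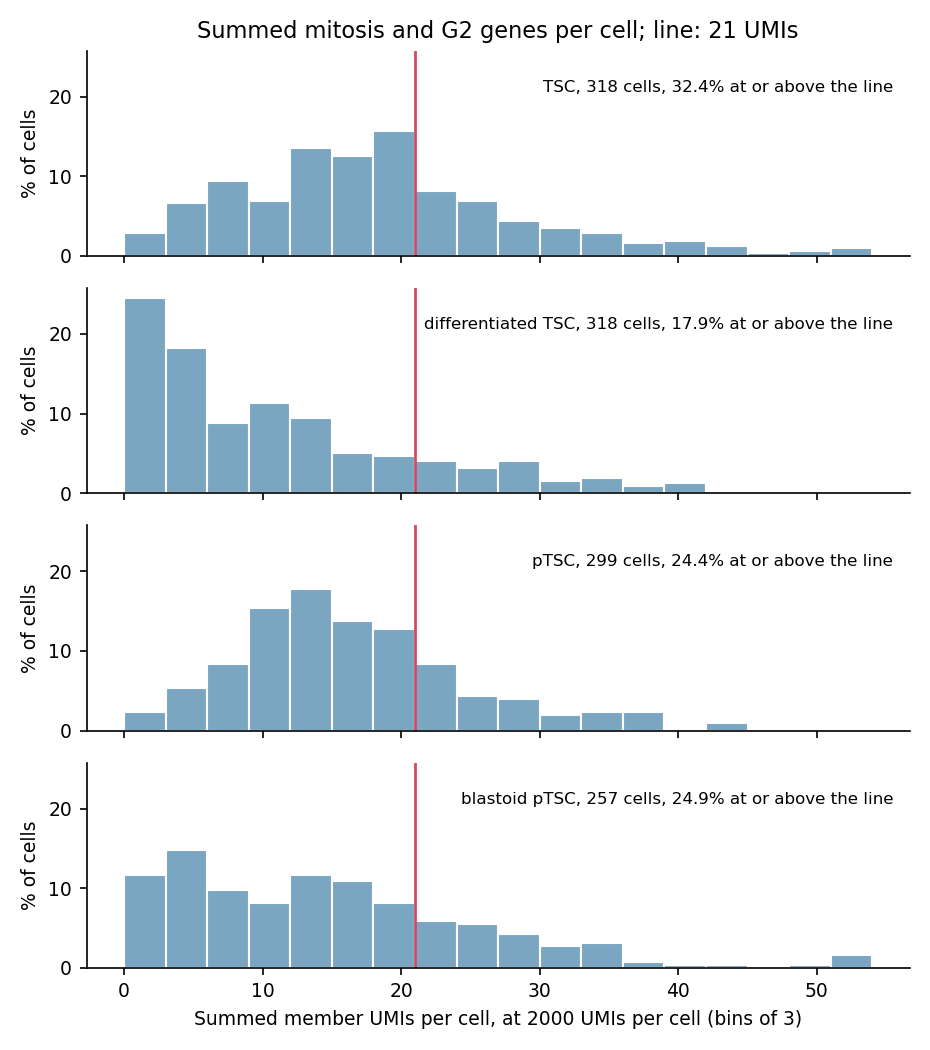
Share of cells by summed member UMIs at 2000 UMIs per cell, in bins of 3, with 1 panel per library and a line at 21 UMIs. The differentiated library is heaped at the left end, where 24.5% of cells have 0 to 2 UMIs, and 17.9% of its cells reach the line against 32.4% in the TSC library.

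Within high cells the ratios of single members, differentiated over TSC library, spread from 0.325 to 2.27. Of 34 members with at least 50 UMIs in the high cells of both together, 8 were at least 1.5-fold lower and 11 at least 1.5-fold higher in the differentiated high cells. The share of all genes was not computed for high cells. Over all kept cells, 27.2% of all measured genes were at least 1.5-fold lower and 28.9% higher. The 2 counts are thus not read as particular to the members. Nuf2 (ratio 0.325), Ccnb1 (0.348), Birc5 (0.379), Plk1 (0.464) and Cdk1 (0.492) were lowest. Cdca3 (2.27), Cks2 (2.19), Nek2 (1.98), Cenpf (1.93), Kif20b (1.82), Kif11 (1.73) and Hmmr (1.67) were highest or near it. Cells were chosen by the sum of these genes, so that a lower share of some forces a higher share of others, and the ratios are a description. Across the cells of a library, single members followed the sum of the rest to differing degrees. The mean Spearman correlation over the 4 libraries was highest for Ube2c (0.53), Top2a (0.51), Cenpf (0.48), Plk1 (0.46), Hmmr (0.46) and Mki67 (0.42), with a median of 0.23 over 42 members. It was near 0 for members with few UMIs, such as Prc1 (0.02) and Ttk (0.03).

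Krt8 and the summed members went opposite ways from cell to cell in every library. Krt8 itself stood at 350 CPM in the TSC, 2224 in the differentiated, 882 in the pTSC and 1695 in the blastoid library. Its Spearman correlation with the sum, over cells at equal depth, was -0.21 in 318 TSCs, -0.36 in 318 differentiated TSCs, -0.17 in 299 pTSCs and -0.38 in 257 blastoid pTSCs. Few genes had a lower one, 8 of 3378 ranked genes in the TSC, 5 of 3332 in the differentiated, 6 of 3203 in the pTSC and 1 of 3328 in the blastoid library. Krt18, the keratin that pairs with Krt8, gave -0.28, -0.37, -0.13 and -0.36. The library median of Krt8 was 0, 3, 1 and 2 UMIs in the TSC, differentiated, pTSC and blastoid library, with 113, 143, 117 and 124 cells above it. The split thus falls at unlike levels, and its margins cannot be compared between libraries. Among cells above the library median of Krt8, 5.59% were high for the members in the differentiated library (2.45 to 10.7), against 28% of cells not above it (21.5 to 35.3). The shares were 25.7% and 36.1% in the TSC, 20.5% and 26.9% in the pTSC and 15.3% and 33.8% in the blastoid library. Intervals were apart in the differentiated and blastoid libraries and overlapped in the TSC and pTSC libraries. They belong to 1 draw at 2000 UMIs. In the blastoid library the difference of -18.5 points was -12.3 with a second draw and -9.13 at 4000 UMIs.

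Eomes followed the members in the same direction, with low correlations. It stood at 377, 119, 581 and 300 CPM in the order TSC, differentiated, pTSC and blastoid pTSC, and its correlation with the sum was 0.18, 0.21, 0.05 and 0.27. A higher one was found for 24 of 3378 ranked genes in the TSC, 169 of 3332 in the differentiated, 676 of 3203 in the pTSC and 27 of 3328 in the blastoid library. The Eomes median was 0, 0, 1 and 0 UMIs in the TSC, differentiated, pTSC and blastoid library, with 136, 48, 93 and 81 cells above it. High cells made up 39% of cells above the Eomes median and 27.5% of the others in the TSC library, 22.9% and 17% in the differentiated, 23.7% and 24.8% in the pTSC, and 34.6% and 20.5% in the blastoid library. The interval pairs overlapped in all 4 libraries, and in differentiated TSCs the mean of Eomes was 0.211 UMIs in high and 0.238 in other cells. These shares rest on few UMIs per cell and moved with the random thinning: a second draw gave a difference of 0.856 percentage points in the TSC library, where the first gave 11.5, and of 7.96 in the pTSC library, where the first gave -1.10. Taking both genes together, high cells were most frequent among cells above the Eomes median and not above the Krt8 median, at 41.6% of TSCs, 28.2% of differentiated TSCs, 27.9% of pTSCs and 37.9% of blastoid pTSCs. The shares were 30.8%, 27.9%, 26.4% and 29.9% among cells above neither median, and 31.4%, 0% (0 of 9 cells, an interval up to 33.6%), 15.6% and 20% among cells above both. The intervals of these 3 classes overlap in each library. Among cells above the Krt8 median and not above the Eomes median they were 23.1%, 5.97%, 22.4% and 14.7%. Cells of a library are not replicates, the counts share a total of 2000 UMIs per cell, and no test was made.

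**Figure D5:**
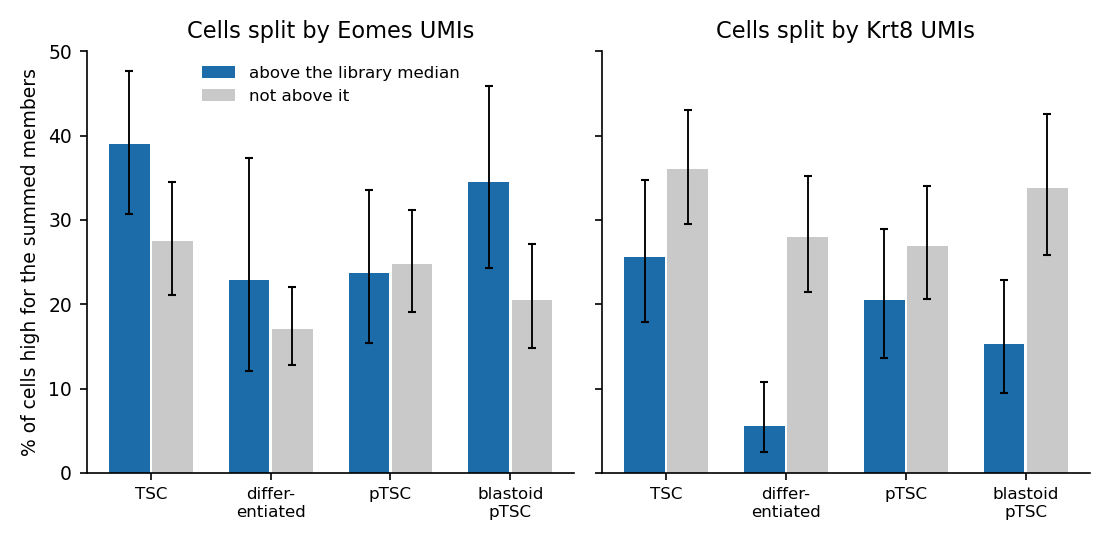
Percent of cells high for the summed members, among cells above (blue) and not above (grey) the library median of Eomes (left) or Krt8 (right), with exact 95% binomial intervals. Grey bars are taller in all 4 libraries for Krt8, as in the differentiated library (28% against 5.59%), and intervals overlap in every pair for Eomes. The medians differ between libraries, so margins cannot be compared across them.

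Sums of other lists followed the members to differing degrees. The further mitosis and G2 genes gave correlations of 0.53, 0.72, 0.54 and 0.64 in the TSC, differentiated, pTSC and blastoid libraries. S phase genes gave 0.14, 0.62, 0.01 and 0.32, with the highest value in the differentiated library. There high cells held a mean of 3.86 S phase UMIs and the others 2.39, while in pTSCs they held 6.67 and 7.85. Giant cell genes gave -0.36 in the differentiated and -0.28 in the blastoid library, where the high cells held a mean of 0.0175 and 0.0156 such UMIs and the others 0.927 and 0.285. Outside all lists, the 15 genes of 2481 with the highest mean correlation over the 4 libraries (range over all genes -0.28 to 0.31, median 0.01) were led by Id2 (0.27), an inhibitor of helix-loop-helix factors, and the stress granule protein G3bp1 (0.26). Next came Trim59 (0.24), B4galt6 (0.24) and Ska2 (0.24), a kinetochore subunit. The others were Tubb6, a tubulin, Gsto1, Dnajc9, Hjurp, the chaperone that deposits Cenpa, Efna3, Hnrnpa2b1, Spdl1, which brings dynein to kinetochores, the cohesin subunit Rad21, Cpne3 and Pou3f1 (0.19 to 0.22). Of genes in the lists, the tubulins Tubb4b and Tuba1b (0.29 each) and Arl6ip1 (0.31) were highest.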

How the data were processed

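RNA was counted by CEL-Seq2, per the labels, in 6 bulk and 4 single-cell libraries. The authors deposited whole-number counts per gene for bulk and, for single wells, estimated counts of transcripts (expected counts), whole numbers in the file and used without rounding. The submitters' processing notes name STAR 2.5.3a, and for build and annotation the entry is "not given in the sources used here". Bulk counts were fitted with edgeR 4.0.16 (filterByExpr, TMM, glmQLFit, glmQLFTest, Benjamini-Hochberg over 3006 genes, threshold 0.05), with DESeq2 1.42.0 as an alternative, and the fit was tested on simulated data. CPM are counts over the library total. Single-cell genes needed 10 counts over both libraries and CPM left out mitochondrial genes. Ratios carry exact conditional binomial intervals, shares Clopper-Pearson intervals (95%, counting error only). Transcript numbers per gene came from the GENCODE mouse annotation. Doublets were not looked for. Well numbers recur on every plate, so shared cells cannot be looked for by name. Values per library were printed for members past the bulk test and the best counted of each role; other members by size of ratio. The members and lists were chosen with earlier results of these data known. Tables were made with pandas 2.3.3, and intervals with scipy 1.17.1 (Python 3.11.15).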

Additional observations from a re-analysis of the deposited data

How the results depend on the processing

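No paired analysis was possible because the replicate numbers of the bulk libraries run on from one group to the other and pair nothing. Against 7 members called higher in bulk, DESeq2 called 3, thinning to the smallest total left 2, the fit without a filter on low counts called 9, and leaving out 1 library gave 2 to 6; over all genes, 93 higher and 84 lower calls became 45 and 31 by DESeq2 and 61 and 54 after thinning, and 50 to 98 and 31 to 91 when 1 library was left out. With mitochondrial genes in the total, the ratio of the summed members was 0.544 for differentiated against TSC, 0.637 against pTSC and 0.867 for blastoid against pTSC, with 4 members lower in the last and 1 higher in pTSC against TSC. Without the 5% of wells with the most UMIs, the ratios were 0.597 for differentiated against TSC and 0.970 for blastoid against pTSC, with 1 and 2 members higher in the differentiated library (against TSC and pTSC), and 2 higher and 2 lower in the blastoid library. With wells of at least 4000 UMIs, 3 were higher in differentiated against pTSC, and 2 higher and 2 lower in blastoid against pTSC. With a gene minimum of 50 counts, 1 was higher in pTSC against TSC and 0 lower in blastoid against pTSC. At 1.5-fold, 1 of 43 was higher in differentiated against TSC (28.9% of all genes), 4 of 42 higher and 20 lower in differentiated against pTSC (30.7% and 31.2%), 7 of 43 higher in pTSC against TSC (26.3%), and 6 of 43 higher and 6 lower in blastoid against pTSC (24.7% and 17.6%). Of all genes, 6 to 20.6% passed in the direction of each count named at 2-fold under the other settings. High cells made up 12.9%, 6.60%, 7.69% and 9.34% (TSC, differentiated, pTSC, blastoid) with a limit that at most 10% of cells reach, and 64.8%, 30.8%, 54.8% and 47.9% with one that at most 50% reach; the differentiated library was lowest in both. The Eomes difference in pTSCs reversed to 3.26 points at 4000 UMIs, 3.50 without thinning and 7.96 with a second draw. In TSCs the Eomes difference of 11.5 points was 0.926 at 4000 UMIs, 0.856 with a second draw and 13.8 without thinning. It was 19.7 and 18.9 points in blastoid cells at 4000 UMIs and without thinning. In differentiated cells it was 17.8 at 4000 UMIs and 21.4 without thinning. The Krt8 difference in blastoid cells, -18.5 points, was -12.3 with a second draw, -9.13 at 4000 UMIs and -9.15 without thinning, and it stayed below 0 in all 4 libraries in every alternative run. The cause of these changes was not tested. Members with few UMIs, such as Aurka, Nusap1 and Ect2, carry wide intervals.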

Other observations

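Genes at the other end of the ranking, chosen after their values were seen, had negative mean correlations with the summed members over the 4 single-cell libraries. The transcription factor Klf6 had -0.23, with -0.23 in the TSC, -0.32 in the differentiated, -0.09 in the pTSC and -0.29 in the blastoid library. Basp1 and the lysosomal protease Ctsb had -0.22 each, the nuclear RNA Neat1 -0.22, the X-linked homeobox gene Rhox6 -0.21 and Jund -0.20. Each of these 6 was below 0 in all 4 libraries. The lowest mean of any of the 2481 ranked genes was -0.28. Of genes that define trophoblast or its stem state, singled out after their values were seen, Rhox5 followed the members with correlations of 0.20, 0.15, 0.01 and 0.29, and Sox2 with 0.05, 0.28, 0.03 and 0.20, in the order TSC, differentiated, pTSC and blastoid pTSC. Gata3 lay between -0.03 and 0.07, Cdx2 between -0.02 and 0.13, Elf5 between -0.00 and 0.10, Tfap2c between -0.10 and 0.06 and Esrrb between -0.03 and 0.10. The sum of the 10 trophoblast genes, Krt8 and Krt18 among them, had negative correlations of -0.02, -0.27, -0.13 and -0.31.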
